A study of Homo sapiens with 18 samples.

Results

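The AP-1 and immediate early factors followed here were 10 genes, all carried by the array: the Fos family (FOS, FOSB, FOSL1, FOSL2), the Jun family (JUN, JUNB, JUND), ATF3, EGR1 and IER3. They were taken by gene symbol from the non-control spots of every array and stand for 10 of the 36204 gene names measured. They had 14 oligonucleotides between them, 4 for ATF3, 2 for IER3 and 1 for each of the others, and all 14 were well above background and unsaturated on all 18 arrays. The study asked what distinguishes colorectal cancer cells that have become resistant to oxaliplatin (OXA, a platinum drug that damages DNA) from their parental line, and what Curcumin adds to OXA. HT29 is a human colorectal adenocarcinoma line, and HTOXAR3 is a subline derived from it by continuous exposure to rising OXA doses. Each line was profiled in 3 conditions with 3 arrays each, which the labels call biological replicates: untreated, OXA for 24 h, and OXA plus 10 µM Curcumin for 24 h. The OXA dose was 10 µM for HT29 but 30 µM for HTOXAR3, so it differed wherever the lines' responses are set side by side. Both the labels and the methods describe the controls as untreated, while the study's results speak of vehicle treatment, and cells given Curcumin alone were not analysed here. Whether HTOXAR3 is a single clone is not given in the sources used here.

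AP-1 is a pair of leucine zipper proteins, one from the Jun family and a partner from the Fos, Jun or ATF families, that binds a short DNA element and switches genes of growth, invasion and stress on or off. Several of its genes are immediate early genes, whose RNA rises within minutes of a growth signal or stress without new protein synthesis and usually decays again, so an array taken a day into treatment reads what is left of that wave or what the cells keep up. ATF3 is a stress-induced repressor and activator that pairs with Jun proteins, EGR1 is a zinc finger factor driven by serum response factor, and IER3 is an immediate early gene and a target of NF-κB with a part in survival and death decisions.

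Promoter sequence is shown for EGR1 and JUND, whose windows held one of the elements searched for. It is also shown for FOS, which was called both lower and higher between treatments of HTOXAR3. The RefSeq promoter table (GRCh38.p14), with 250 bases before and 50 after each start, had 9 windows for 8 of the 10 members and none for FOSL1 and IER3. Capitals mark an element, and only the bases before the start are printed.
EGR1 (chr5:138465229-138465478, plus strand): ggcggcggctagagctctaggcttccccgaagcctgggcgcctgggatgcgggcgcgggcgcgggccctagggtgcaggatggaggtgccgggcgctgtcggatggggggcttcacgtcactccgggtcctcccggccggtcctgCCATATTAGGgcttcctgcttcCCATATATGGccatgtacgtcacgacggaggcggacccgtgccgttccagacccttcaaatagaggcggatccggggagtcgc
JUND (chr19:18281623-18281872, minus strand): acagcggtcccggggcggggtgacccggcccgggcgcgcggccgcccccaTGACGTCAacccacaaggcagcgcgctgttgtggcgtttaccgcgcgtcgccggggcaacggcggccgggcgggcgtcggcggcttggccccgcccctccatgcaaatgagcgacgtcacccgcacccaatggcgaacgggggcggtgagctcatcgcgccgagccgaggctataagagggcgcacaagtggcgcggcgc
FOS (chr14:75278578-75278827, plus strand): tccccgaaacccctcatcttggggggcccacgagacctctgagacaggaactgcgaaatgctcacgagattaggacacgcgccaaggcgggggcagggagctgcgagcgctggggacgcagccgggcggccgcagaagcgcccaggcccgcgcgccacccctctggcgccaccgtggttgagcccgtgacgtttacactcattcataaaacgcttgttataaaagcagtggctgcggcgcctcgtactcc
The EGR1 window held 2 copies of the CArG box, the element that serum response factor binds, and 1.29% of the 35116 promoter windows held at least 1. The CRE, TGACGTCA, which ATF and CREB proteins bind, was found in the JUND window and in 1.85% of all windows. The TRE, TGANTCA, which AP-1 itself binds, was found in 7.71% of all windows and, among the members, only in that of FOSL2, just after its start. The NF-κB site was in 11.3% of all windows and in none of the members' windows. All elements were searched on both strands, a CRE holds no TRE within its letters, and a match or its absence describes the letters of the window alone.

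On each array, between 52.4% and 63.6% of the non-control spots were well above background, the lowest being HTOXAR3 untreated array 2. The arrays lay on 3 slides, of which slide 1 held only HT29 untreated array 1 and HT29 OXA array 1, while slides 2 and 3 held arrays of all 6 groups. Of 12 colon epithelial markers, 9 to 11 were well above background on every array of a group, as were 0 or 1 of 6 fibroblast markers. Of 5 leukocyte markers, 4 or 5 were well above background on all arrays of a group, and their summed log2 intensity ran from 10.58 in HT29 OXA to 11.65 in untreated HTOXAR3. Of 3 endothelial markers, 2 or 3 were. The epithelial markers of the labelled cell type were thus mostly present, and probes for leukocyte genes gave signal as well.

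Some arrays stood apart for these very genes. On HT29 untreated array 3, all 10 members had the highest value of the group, with a median deviation of 0.28 (log2) from the group mean. On HT29 OXA plus Curcumin array 3, 8 of the 10 were the highest, with a median deviation of 0.19, and on HTOXAR3 untreated array 3, 9 were, with a median deviation of 0.06. All of these lay on slide 3. The same arrays were highest for 22, 21 and 19 of 31 other immediate early genes, while over all gene names they were highest for 39.4%, 33.5% and 33.0%. HTOXAR3 OXA plus Curcumin array 3, also on slide 3, was highest for 21 of the 31 and for 5 members (30.6% of all gene names), with a median deviation of the members of 0.06. HTOXAR3 OXA array 2, on slide 3 too, had the same median deviation with 6 members highest (33.3% of all gene names). HT29 OXA array 1, on slide 1, also had 6 highest (33.9%), with a median deviation of 0.04. On slide 3, HT29 OXA array 3 and HTOXAR3 OXA array 3 had medians of -0.01 and -0.02. The deviations of FOS and FOSB from their group means had a Pearson correlation of 0.89 over the 18 arrays, and those of JUND and ATF3 one of 0.87, which describes arrays that share slides and normalization. For the members, values without HT29 untreated array 3 and HT29 OXA plus Curcumin array 3 stand beside the results they change. No such values are given for the further lists below, and what set these arrays apart was not tested.

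**Figure D1:**
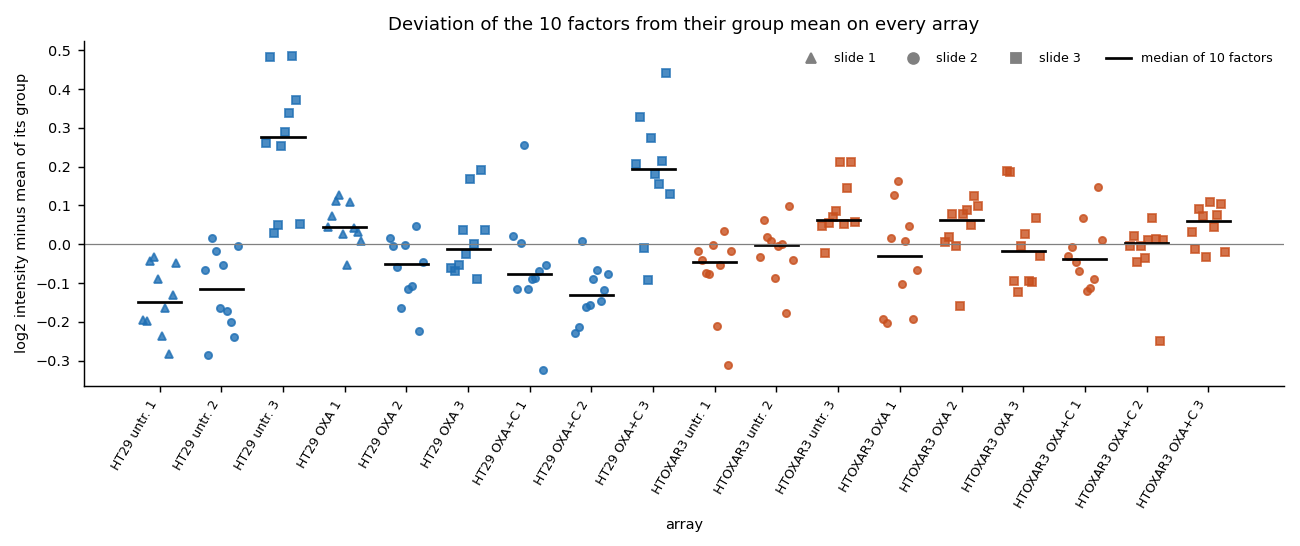
Deviation of each of the 10 factors from its group mean (log2 intensity, y axis) on each of the 18 arrays (x axis), with marker shape for the slide, blue for HT29, orange for HTOXAR3 and a black bar for the median of the 10. HT29 untreated array 3 and HT29 OXA plus Curcumin array 3 have medians of 0.28 and 0.19, above those of the other arrays.

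In the untreated cells, the resistant line had less FOS, FOSB and FOSL1 RNA and more IER3 RNA than its parent. FOS, the founding partner of JUN in AP-1 (oligonucleotide at chr14:75748214-75748273, GRCh37), read 13.94, 14.07 and 14.40 in HT29 and 13.47, 13.46 and 13.54 in HTOXAR3 on the log2 intensity scale. FOSB, a relative with a strong activation domain (chr19:45978205-45978264), read 12.61, 12.52 and 13.29 against 11.88, 11.99 and 11.90. FOSL1, which encodes Fra-1, a Fos protein tied to invasion (chr11:65660098-65660157), read 10.17, 10.23 and 10.24 against 9.64, 9.73 and 9.77. For all of these the HTOXAR3 arrays lay below every HT29 array, with FOS and FOSB spread more widely in HT29 through array 3. IER3 (chr6:30711312-30711371) ran the other way, at 14.19, 14.23 and 14.29 in HT29 and 15.15, 15.12 and 15.22 in HTOXAR3, so that the groups were far apart against a spread of 0.05 (SD) in each.

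The differences, HTOXAR3 minus HT29, were -0.65 ± 0.13 (log2, SE) for FOS (adjusted p = 0.0202), -0.88 ± 0.18 for FOSB (adjusted p = 0.0255), -0.50 ± 0.07 for FOSL1 (adjusted p = 0.000806) and 0.93 ± 0.07 for IER3 (adjusted p = 1.52e-06), each from limma with Benjamini-Yekutieli adjustment over all gene names. As folds, FOS was 1.56-fold, FOSB 1.84-fold and FOSL1 1.41-fold lower, and IER3 1.90-fold higher. A gene was called where the adjusted p was below 0.05 and the fold above 1.2: 3 of the 10 members were called lower, against 5.28% of all gene names, and 1 was called higher, against 6.26%. Shares of all gene names, here and below, include names not above background. In a fit of only the 21868 names well above background in a group, 10.4% were called lower and 11.9% higher. The members' median difference was -0.44 and that of all gene names -0.03. JUND, ATF3 and EGR1 differed by -0.40, -0.49 and -0.52, with no overlap between the lines' arrays but adjusted p of 0.38, 0.583 and 1, while JUN (0.27), JUNB (0.06) and FOSL2 (-0.06) overlapped. The summed leukocyte marker level was 11.24 to 11.39 in untreated HT29 and 11.58 to 11.65 in untreated HTOXAR3, and its part in these differences was not tested. In bulk RNA, fewer cells that make a transcript and less of it per cell cannot be told apart, here or in the comparisons that follow.

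With slide as a block all 4 calls stayed, at -0.66 for FOS, -0.87 for FOSB, -0.48 for FOSL1 and 0.93 for IER3. Within slides 2 and 3 the FOS difference was -0.60 and -0.86, and that of FOSB -0.59 and -1.39. A fit of only the groups compared called 1 member, so FOSL1 and IER3 did not both stay called there (3.47% of all gene names were called). Leaving out 1 array at a time, FOSL1 and IER3 were called in all 6 fits. FOS lost its call in 5 of the 6 (all but that without HT29 array 1) and FOSB in 4 (without HT29 array 3 or any HTOXAR3 array), with differences of -0.74 to -0.51 and -1.02 to -0.64. Without HT29 untreated array 3 and HT29 OXA plus Curcumin array 3 together, FOS differed by -0.51 (adjusted p = 0.0506).

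**Figure D2:**
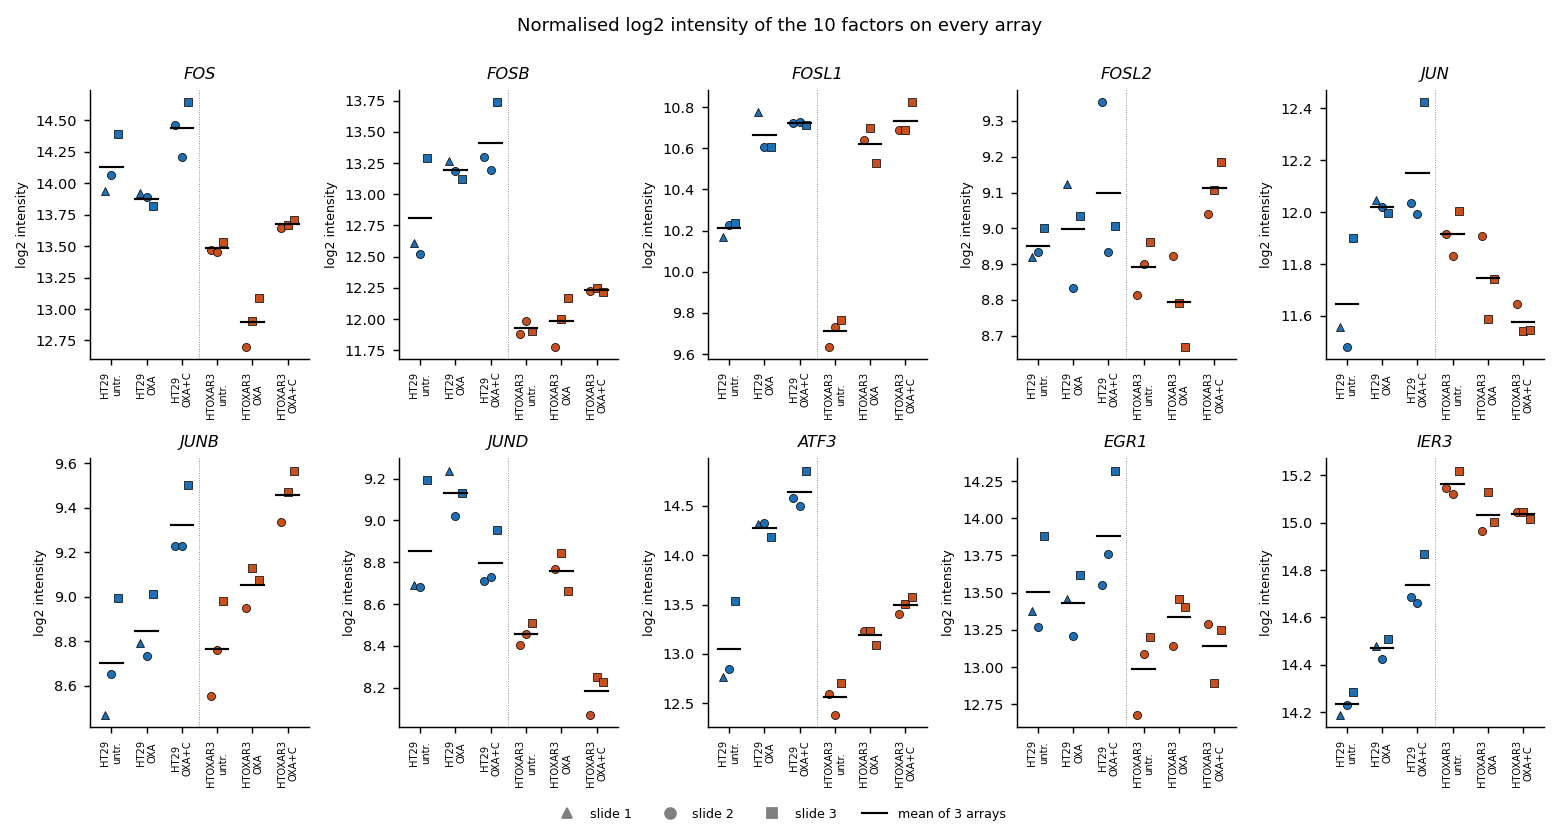
Normalised log2 intensity (y axis) of each of the 10 factors on every array, in the 6 groups of line and treatment (x axis, where OXA+C is OXA plus Curcumin), with marker shape for the slide and a bar for the mean of 3 arrays. Among the untreated arrays, those of HTOXAR3 sit below those of HT29 for FOS, FOSB and FOSL1 and above them for IER3, and ATF3 and FOSL1 sit higher under OXA in both lines.

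OXA for 24 h raised FOSL1 in both lines, raised ATF3 in HT29 and lowered FOS in HTOXAR3. FOSL1 went from the untreated values above to 10.77, 10.60 and 10.61 in HT29 and to 10.64, 10.70 and 10.53 in HTOXAR3. The treated arrays of the lines thus overlapped, from different starts, and their difference under treatment was not tested. The rise was 0.45 ± 0.07 (log2, SE) in HT29 (1.37-fold, adjusted p = 0.00147) and 0.91 ± 0.07 in HTOXAR3 (1.88-fold, adjusted p = 6.36e-06). ATF3 (chr1:212793856-212793915) went from 12.77, 12.85 and 13.53 to 14.32, 14.32 and 14.19 in HT29, a rise of 1.23 ± 0.17 (2.34-fold, adjusted p = 0.000617). In HTOXAR3 it read 12.59, 12.38 and 12.70 untreated and 13.23, 13.24 and 13.09 under OXA, a difference of 0.63 ± 0.17 with no overlap that did not pass the test (adjusted p = 0.16). FOS read 12.70, 12.90 and 13.08 under OXA in HTOXAR3, below all 3 untreated arrays of that line, and fell by 0.59 ± 0.13 (1.51-fold, adjusted p = 0.0429). In HT29, FOS under OXA read 13.92, 13.89 and 13.82, a difference of -0.25 that was not called.

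In HT29, 2 of the 10 members rose, against 8.33% of all gene names that rose, and 0 fell, against 7.62%. In HTOXAR3, 1 rose, against 5.31%, and 1 fell, against 4.94%. In the fit of only names well above background in a group, 15.6% rose and 14.3% fell in HT29, and 11% and 10.2% in HTOXAR3. The members' median difference was 0.26 in HT29 and 0.17 in HTOXAR3, where the medians of all gene names were -0.01 and 0.01. JUN, the transcript of the principal Jun protein, differed by 0.37 in HT29 and -0.17 in HTOXAR3, JUND by 0.28 and 0.30, and JUNB by 0.14 and 0.29, none of them called. FOSB differed by 0.39 and 0.06, EGR1 by -0.08 and 0.34, IER3 by 0.24 and -0.13, and FOSL2, which encodes Fra-2, by 0.05 and -0.10. The summed leukocyte marker level was lower with OXA in both lines, at 10.58 to 10.62 in HT29 and 11.11 to 11.18 in HTOXAR3, and its part in these differences was not tested.

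Both FOSL1 calls and the ATF3 call in HT29 stayed in all 6 fits that left out 1 array and with slide as a block. Neither HT29 call stayed in a fit of only the groups compared, where 3.7% of all gene names were called. Within slide 3, which held HT29 untreated array 3, the ATF3 difference was 0.65, against 1.55 on slide 1 and 1.48 on slide 2. The FOS call in HTOXAR3 was lost in 5 of 6 fits, those without any 1 untreated array or without OXA array 1 or 2, at -0.69 to -0.49, and stayed with slide as a block (-0.65, adjusted p = 0.0144). Without HT29 untreated array 3 and HT29 OXA plus Curcumin array 3, the number of members called in HT29 went from 2 to 5, as FOSB (0.63), JUN (0.50) and JUND (0.44) passed, while 7.15% of all gene names rose in that fit, and ATF3 in HTOXAR3 passed as well (0.63, adjusted p = 0.00331).

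The combination of OXA and Curcumin gave the highest group mean of ATF3 among the 6 groups, in HT29, and raised JUNB in both lines. ATF3 read 14.58, 14.50 and 14.86 in HT29 and 13.41, 13.51 and 13.57 in HTOXAR3, above every untreated array of its line. These were rises of 1.60 ± 0.17 (3.02-fold, adjusted p = 4.32e-05) and 0.94 ± 0.17 (1.92-fold, adjusted p = 0.00586) over the untreated cells. JUNB, a Jun protein that often opposes JUN in growth control (chr19:12902998-12903057), read 8.47, 8.65 and 8.99 untreated and 9.23, 9.23 and 9.50 with the combination in HT29, and 8.56, 8.76 and 8.98 against 9.34, 9.47 and 9.57 in HTOXAR3. The groups did not overlap in either line, and the rises were 0.62 ± 0.14 (1.53-fold, adjusted p = 0.0408) and 0.69 ± 0.14 (1.62-fold, adjusted p = 0.0183).

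FOSL1 under the combination read 10.72, 10.73 and 10.71 in HT29 and 10.69, 10.69 and 10.82 in HTOXAR3, again overlapping between the lines. It rose by 0.51 ± 0.07 in HT29 (adjusted p = 0.000408) and by 1.02 ± 0.07, or 2.03-fold, in HTOXAR3 (adjusted p = 7.16e-07). IER3 rose in HT29, to 14.69, 14.66 and 14.87, by 0.50 ± 0.07 (1.42-fold, adjusted p = 0.0004). In HTOXAR3 it read 15.04, 15.04 and 15.02, just below its untreated arrays, a difference of -0.13 that was not called. In HT29, 4 members rose, against 9.56% of all gene names, and 0 fell, against 9.02%. In HTOXAR3, 3 rose, against 8.82%, and 0 fell, against 8.64%. In the fit of only names well above background in a group, 17.5% rose and 16.8% fell in HT29, and 16% and 16.1% in HTOXAR3. The members' medians were 0.50 and 0.20, beside -0.03 and -0.01 for all gene names. JUN differed by 0.50 in HT29 (adjusted p = 0.0749) and -0.34 in HTOXAR3 (adjusted p = 0.717), each without overlap with its untreated arrays. The summed leukocyte marker level with the combination was 10.93 to 11.32 in HT29, overlapping the untreated arrays, and 11.25 to 11.27 in HTOXAR3, below them, and its part in these differences was not tested.

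With slide as a block every one of these calls stayed. None of the HT29 calls stayed in a fit of only the groups compared, where 5.68% of all gene names were called. JUNB lost its call in 5 of 6 fits in HT29 (all but that without untreated array 3) and in 4 of 6 in HTOXAR3 (without untreated array 1 or 2, or combination array 2 or 3), at 0.50 to 0.76 and 0.59 to 0.80, while ATF3, FOSL1 and IER3 stayed called in all of theirs. Within slides 2 and 3 JUNB differed by 0.58 and 0.51 in HT29 and by 0.68 and 0.54 in HTOXAR3. Without HT29 untreated array 3 and HT29 OXA plus Curcumin array 3, FOSB (0.68) and JUN (0.49) passed in HT29 too.

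Set against OXA alone, adding Curcumin raised FOS and lowered JUND in HTOXAR3, and no member was called in HT29 by the adjusted p and fold used here, with other settings calling up to 3. FOS in HTOXAR3 went from 12.70, 12.90 and 13.08 with OXA to 13.64, 13.67 and 13.71 with the combination, with no overlap. The rise was 0.78 ± 0.13 (1.71-fold, adjusted p = 0.00663). Against untreated HTOXAR3 cells the combination differed by 0.19 for FOS and was not called (adjusted p = 1). JUND, a Jun protein made steadily in most cells (chr19:18391371-18391430), went from 8.77, 8.85 and 8.66 to 8.07, 8.25 and 8.23, and fell by 0.58 ± 0.12 (1.49-fold, adjusted p = 0.0468). In HT29, FOS read 14.46, 14.21 and 14.65 with the combination, above all 3 OXA arrays, yet the difference of 0.56 ± 0.13 missed the threshold (adjusted p = 0.101). JUNB (0.47, adjusted p = 0.454), IER3 (0.27, adjusted p = 0.171) and ATF3 (0.37, adjusted p = 1) also lay above all 3 OXA arrays of HT29 without passing. JUND lay below them (-0.33, adjusted p = 1).

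These counts were 0 higher and 0 lower in HT29, where 3.14% and 2.39% of all gene names rose and fell, and 1 and 1 in HTOXAR3, where 4.43% and 4.41% did. In HT29, 9 of the 10 members lay above 0 with a median of 0.24, and in HTOXAR3 7 did with a median of 0.18, beside medians of -0.02 over all gene names in each. By limma with Benjamini-Hochberg adjustment, 3 members passed in HT29 (FOS, JUNB and IER3), against 10.2% of all gene names, and 5 had an unadjusted p under 0.05, against 22.2%. Neither FOS nor JUND in HTOXAR3 was called in a fit of only the groups compared, where 0.616% of all gene names were. FOS in HTOXAR3 was called in all 6 fits that left out 1 array, at 0.68 to 0.87, and within slides 2 and 3 it differed by 0.94 and 0.69. The JUND call was lost in all 6, at -0.62 to -0.52, and with the replicate number as a block (-0.58, adjusted p = 0.0517), a fit in which 1 member was called in place of 2 and 8.66% of all gene names were called. With slide as a block it stayed (adjusted p = 0.0245), and JUNB passed as well, in HT29 (0.44, adjusted p = 0.0368) and in HTOXAR3 (0.41, adjusted p = 0.0252), while 4.62% and 9.16% of all gene names were called. The summed leukocyte marker level with the combination lay in each line above that with OXA alone, as FOS did, and its part in the result was not tested.

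**Figure D3:**
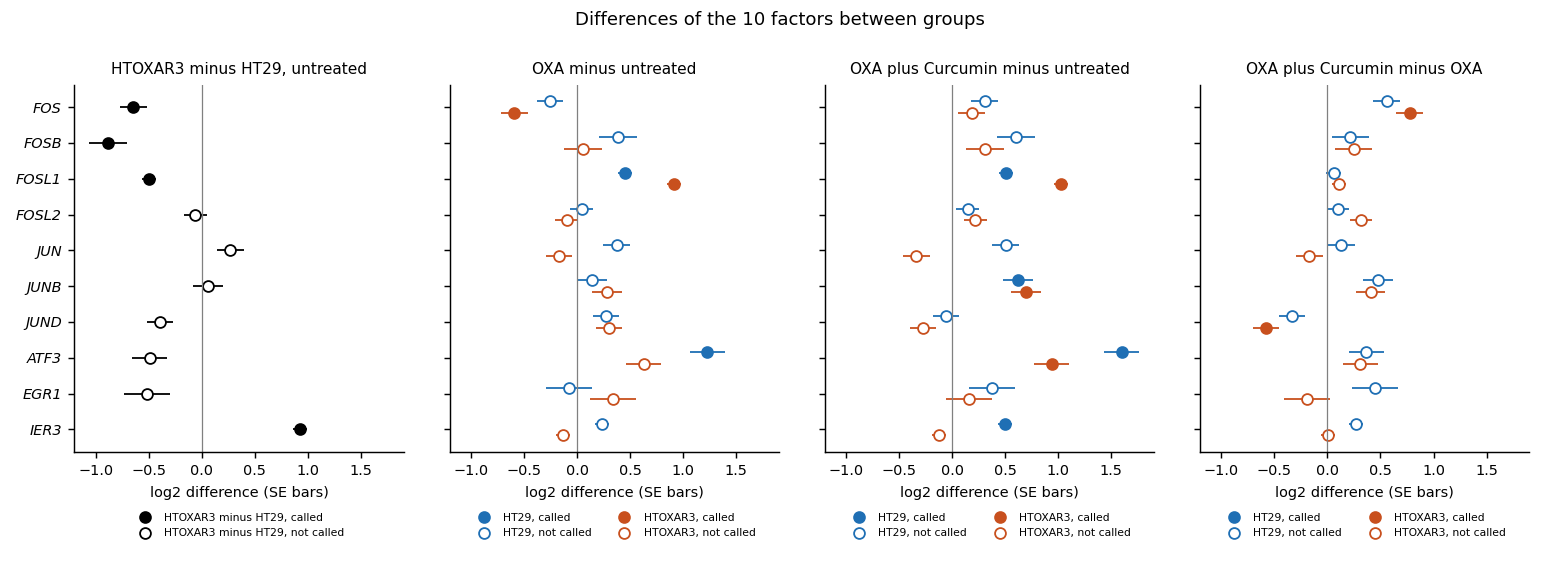
Differences of the 10 factors (log2, x axis, bars are SE from the limma fit over 18 arrays) between the untreated lines, for OXA and for OXA plus Curcumin against untreated cells, and for OXA plus Curcumin against OXA, with filled circles where the difference was called. FOSL1 was called for both treatments in both lines, and ATF3 reached 1.60 in HT29 and 0.94 in HTOXAR3 with the combination.

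The design also allows the difference between the lines' responses, HTOXAR3 minus HT29, to be tested, where line and OXA dose cannot be told apart. IER3 alone passed, for the combination: it rose by 0.50 in HT29 and stood at -0.13 in HTOXAR3, a difference of -0.63 ± 0.09 (adjusted p = 0.0214). For the combination 1 member was thus called lower, against 0.536% of all gene names, and 0 higher, against 0.32%. No member was called for OXA alone, where 0.608% and 0.398% of all gene names were higher and lower, or for adding Curcumin, where 0.0276% and 0.108% were. The FOSL1 response was larger in HTOXAR3 by 0.46 ± 0.09 for OXA (adjusted p = 0.174) and by 0.51 ± 0.09 for the combination (adjusted p = 0.097). JUN responses differed by -0.54 ± 0.18 (adjusted p = 1) and -0.84 ± 0.18 (adjusted p = 0.207), and those of ATF3 by -0.60 ± 0.23 and -0.66 ± 0.23 (adjusted p = 1 for each). By limma with Benjamini-Hochberg adjustment, FOSL1 passed for OXA (3.0% of all gene names did), FOSL1, JUN and IER3 for the combination (3.44% did), and 0 members for adding Curcumin (0.892% did). The unadjusted p was under 0.05 for 4 members in the OXA comparison, against 13.7% of all gene names, for 4 in that of the combination, against 14.4%, and for 1 in that of adding Curcumin, against 9.74%. Within slides 2 and 3 the IER3 difference was -0.53 and -0.77. It lost its call in 8 of the 12 fits that left out 1 array, at -0.67 to -0.56, namely those without HT29 untreated array 1 or 2, any HTOXAR3 untreated array or any HTOXAR3 combination array. It also lost it without HT29 untreated array 3 and HT29 OXA plus Curcumin array 3 together (-0.59, adjusted p = 0.0642), where the ATF3 difference under OXA passed instead (-0.84, adjusted p = 0.0479).

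Ordered by level, IER3 was lowest in untreated HT29 (mean 14.24), followed by OXA (14.47) and the combination (14.74) with no overlap between neighbours, although neither of these steps passed the test, and stood highest in the HTOXAR3 groups (15.03 to 15.16), whose OXA arrays overlapped both the combination and the untreated arrays. FOSB had all 3 HTOXAR3 groups (means 11.92 to 12.23) below all 3 HT29 groups (12.81 to 13.41). FOS did too, from 12.90 with OXA in HTOXAR3 to 14.44 with the combination in HT29, and only the top 2 groups overlapped there. ATF3 spanned the widest range of group means, 2.09, with untreated HTOXAR3 lowest (12.56) and the combination in HT29 highest (14.64), and of the neighbours only untreated HT29 and OXA-treated HTOXAR3 overlapped. FOSL1 split into untreated HTOXAR3 (9.71), untreated HT29 (10.21) and 4 treated groups (10.62 to 10.73) that all overlapped their neighbours.

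JUND stood at 8.18 with the combination, 8.46 untreated and 8.76 with OXA in HTOXAR3, with no overlap among these groups, and the HT29 groups ran from 8.80 to 9.13, each overlapping the next. JUNB means ran from 8.70 in untreated HT29 to 9.46 with the combination in HTOXAR3, and the only gap between neighbours lay below the combination groups.

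EGR1, FOSL2 and JUN were called in none of the 10 comparisons. EGR1 means ran from 12.99 to 13.88, each group overlapping the next, and its SD within groups reached 0.40. FOSL2 stayed between 8.79 and 9.11 with every group overlapping its neighbour, and the 95% interval of its difference under OXA ran from -0.19 to 0.28 in HT29 and from -0.33 to 0.13 in HTOXAR3. JUN means ran from 11.58 with the combination in HTOXAR3 to 12.15 with the combination in HT29, all neighbours overlapping. Of the other members, FOSL1 was called in 5 comparisons, FOS, ATF3 and IER3 in 3, JUNB in 2, and FOSB and JUND in 1.

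ATF3 could be read on 4 oligonucleotides. The brightest, used above, and the next 2 (chr1:212788502-212788561 and chr1:212792837-212792896) gave OXA differences in HT29 of 1.23, 1.08 and 1.15, all called. The dimmest (chr1:212792519-212792578) gave 0.35 and was not called there, or for the combination in either line (0.38 in HT29 and 0.37 in HTOXAR3, against 1.60 and 0.94 on the brightest). The 2 oligonucleotides of IER3 agreed in every call, with basal differences of 0.93 and 1.09 and response differences for the combination of -0.63 and -0.77.

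Among 3817 other gene names that were well above background on all arrays and whose group means spanned at least 1 (log2), the profile over the 6 group means most like that of ATF3 was that of TMEM45B (Pearson r = 0.996), followed by AP5B1 (0.995), with 261 names above 0.9. For FOS it was ARHGEF10L (r = 0.998), followed among named genes by PRO0628 (0.992) and MIR181A1HG (0.991), with 153 names above 0.9. For FOSB it was ABCC4 (r = 0.998), SLC16A4 (0.997) and LOC401320 (0.997), with 377 names above 0.9. With 6 points that share arrays and normalization, so many names reach a high value that these serve as a description only.

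Other leucine zipper proteins, some of which pair with AP-1 members, changed in both directions. Of 21, 5 were higher and 5 lower in untreated HTOXAR3, where 6.26% and 5.28% of all gene names were. With OXA, 4 rose and 4 fell in HT29 (8.33% and 7.62% of all gene names) and 4 rose and 2 fell in HTOXAR3 (5.31% and 4.94%). With the combination, 7 rose and 3 fell in HT29 (9.56% and 9.02%) and as many in HTOXAR3 (8.82% and 8.64%). Adding Curcumin to OXA raised 7 and lowered 2 in HT29 (3.14% and 2.39%), and raised 8 and lowered 1 in HTOXAR3 (4.43% and 4.41%). BATF, which pairs with Jun proteins and competes with Fos, stood at 8.76 ± 0.06 (log2, SD, n = 3) in untreated HT29 and 11.85 ± 0.02 in HTOXAR3. This was the largest basal difference of the list called higher in HTOXAR3 (3.09, 8.52-fold, adjusted p = 1.57e-11). JDP2, a repressor that pairs with JUN, was 1.88-fold lower there (adjusted p = 0.000473). CREB5 was not well above background on any untreated HTOXAR3 array and so at least 2.60-fold lower. DDIT3, the stress factor CHOP, rose from 7.92 to 9.56 and 10.59 in HT29 and from 8.09 to 9.51 and 10.28 in HTOXAR3 with OXA and the combination, so that adding Curcumin raised it 2.05-fold (adjusted p = 3.61e-06) and 1.71-fold (adjusted p = 3.01e-05). MAFF, a small Maf protein, went from 9.90 to 10.92 and 11.46 in HT29 and from 9.44 to 10.21 and 11.09 in HTOXAR3. The median over the 21 lay between 0.01 and 0.24 in the treatment comparisons, beside -0.03 to 0.01 for all gene names.

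Of 34 other immediate early genes, 9 rose and 1 fell with OXA in HT29 (8.33% and 7.62% of all gene names), and 10 rose and 1 fell in HTOXAR3 (5.31% and 4.94%). With the combination 18 rose and 1 fell in each line (9.56% and 9.02% in HT29, 8.82% and 8.64% in HTOXAR3). These counts include the HT29 arrays that stood highest for most of these genes. Their medians were 0.26, 0.29, 0.51 and 0.63, beside -0.01, 0.01, -0.03 and -0.01 for all gene names. Adding Curcumin to OXA raised 7 and lowered 0 in HT29 (3.14% and 2.39%), and raised 9 and lowered 1 in HTOXAR3 (4.43% and 4.41%), with medians of 0.24 and 0.35. For the difference between the lines' responses to OXA, 1 was higher and 0 lower (0.608% and 0.398%), namely PLK3 (0.64, limma, adjusted p = 0.0128). None was called for the combination (0.32% and 0.536%) or for adding Curcumin (0.0276% and 0.108%). GADD45B, a growth arrest and DNA damage gene, rose most with the combination, from 9.23 to 12.62 in HT29 (10.5-fold, adjusted p = 3.79e-10) and from 9.46 to 12.77 in HTOXAR3 (9.87-fold, adjusted p = 9.72e-10). CCN1, a matrix protein listed on the array as CYR61, rose 4.95-fold (adjusted p = 1.42e-07) with OXA in HT29 and 2.90-fold (adjusted p = 2.03e-05) in HTOXAR3. In the untreated cells 4 of the 34 were higher and 5 lower in HTOXAR3 (6.26% and 5.28%), with SGK1, a survival kinase, 3.50-fold higher (adjusted p = 2.63e-08) and NR4A2, an orphan nuclear receptor, 2.30-fold lower (adjusted p = 0.000572). BTG2, an antiproliferative gene that p53 can induce, fell 2.59-fold with OXA (adjusted p = 0.026) and 3.86-fold with the combination (adjusted p = 0.000825) in HTOXAR3.

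Of 22 kinases and factors upstream of FOS and JUN, 5 were higher and 0 lower in untreated HTOXAR3 (6.26% and 5.28% of all gene names). With OXA, 3 rose and 2 fell in HT29 (8.33% and 7.62%) and 3 rose and 1 fell in HTOXAR3 (5.31% and 4.94%). With the combination, 2 rose and 3 fell in HT29 (9.56% and 9.02%) and 6 rose and 2 fell in HTOXAR3 (8.82% and 8.64%). Adding Curcumin raised 0 and lowered 0 in HT29 (3.14% and 2.39%), and in HTOXAR3 (4.43% and 4.41%) it raised 0 and lowered 1, MAP3K1, which feeds the JNK cascade and fell 1.27-fold (adjusted p = 0.0205). The list's medians lay between -0.07 and 0.11 in these comparisons, beside -0.03 to 0.01 for all gene names. MAPK3, the transcript of ERK1, rose 1.92-fold with OXA in HT29 (adjusted p = 8.45e-07), and RPS6KA3, which encodes the ERK-activated kinase RSK2, fell in both lines, 1.59-fold in HT29 (adjusted p = 0.000473) and 1.69-fold in HTOXAR3 (adjusted p = 0.000322).

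Of 25 genes known as AP-1 targets, 10 were higher and 1 lower in untreated HTOXAR3 (6.26% and 5.28% of all gene names). With OXA, 8 rose and 2 fell in HT29 (8.33% and 7.62%) and 8 rose and 4 fell in HTOXAR3 (5.31% and 4.94%). With the combination, 11 rose and 1 fell in HT29 (9.56% and 9.02%) and 12 rose and 2 fell in HTOXAR3 (8.82% and 8.64%). The medians of these were 0.26, 0.18, 0.30, 0.42 and 0.36, beside -0.03 to 0.01 for all gene names. Adding Curcumin to OXA raised 3 and lowered 4 in HT29 (3.14% and 2.39%), with a median of 0.01, and raised 3 and lowered 2 in HTOXAR3 (4.43% and 4.41%), with a median of 0.04. For the difference between the lines' responses, 0 were higher and 3 lower for OXA (0.608% and 0.398%). For the combination 1 was higher and 3 lower (0.32% and 0.536%), and for adding Curcumin 0 were called either way (0.0276% and 0.108%). None of the other leucine zipper proteins or upstream kinases and factors was called in these. PLAU, the urokinase plasminogen activator, rose from 9.29 to 12.06 with OXA in HT29 (6.81-fold, adjusted p = 1.7e-11) and from 10.73 to 12.73 in HTOXAR3 (3.99-fold, adjusted p = 5.53e-09), and the combination stood below OXA alone, 2.37-fold in HT29 (adjusted p = 3.73e-07) and 1.99-fold in HTOXAR3 (adjusted p = 1.64e-06). PLAUR, its receptor, was 2.45-fold lower in untreated HTOXAR3 (adjusted p = 6.13e-09) and rose 3.45-fold there with the combination (adjusted p = 9.72e-10). In HT29 it went from 11.01 untreated to 11.64 with OXA and 11.89 with the combination. The lines' responses, HTOXAR3 minus HT29, differed by -0.77 for PLAU with OXA (limma, adjusted p = 0.00127). They differed by 0.91 for PLAUR with the combination (limma, adjusted p = 0.000415). HMOX1, heme oxygenase and also a target of NRF2, fell 3.93-fold (adjusted p = 1.57e-07) and 3.63-fold (adjusted p = 1.31e-06) with OXA and rose 7.41-fold (adjusted p = 4.46e-08) and 8.37-fold (adjusted p = 1.38e-08) when Curcumin was added, in HT29 and HTOXAR3. IVL and SPP1 were not well above background on any untreated HT29 array and were at least 16.7-fold (adjusted p = 2.14e-10) and 30.4-fold (adjusted p = 2.58e-10) higher in untreated HTOXAR3. Their responses to the combination differed between the lines by -1.30 and -1.88 (limma, adjusted p = 0.0133 and 0.00511). The IVL response to OXA differed by -1.80 (limma, adjusted p = 0.000555), and IVL was not well above background in any HT29 group.

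**Figure D4:**
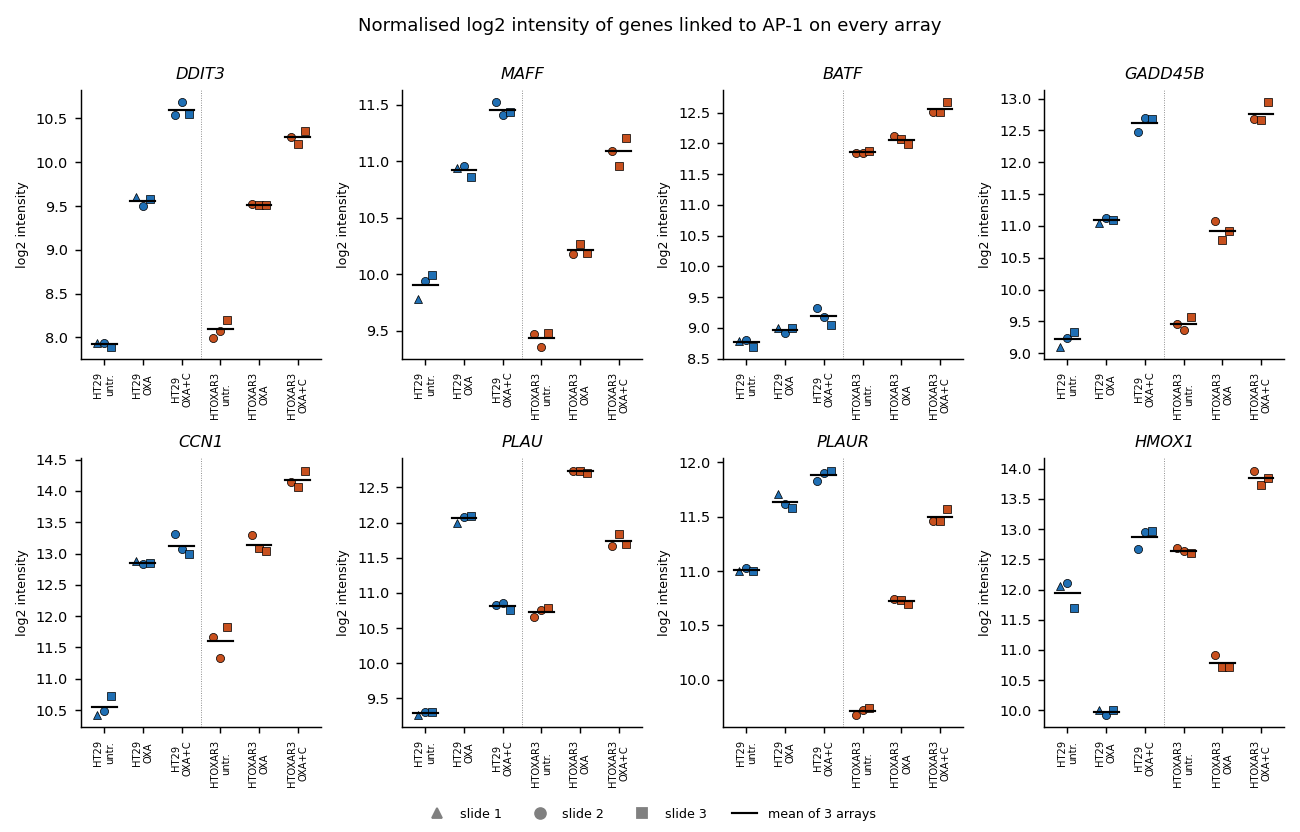
Normalised log2 intensity (y axis) of 8 genes linked to AP-1, namely 3 leucine zipper partners (DDIT3, MAFF, BATF), 2 immediate early genes (GADD45B, CCN1) and 3 genes known as AP-1 targets (PLAU, PLAUR, HMOX1), on every array of the 6 groups (x axis), with a bar for the mean of 3. DDIT3 and GADD45B step up from untreated through OXA to the combination in both lines, BATF separates the lines, and HMOX1 is lower with OXA and higher again with the combination.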

How the data were processed

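The authors labelled total RNA with Cy3, hybridised it to 1-colour Agilent human arrays and read them with Feature Extraction 10.7.3.1. They deposited a mean and a local background intensity for each spot, and the processed signal, also an intensity. Per the methods, the authors used normexp, quantile normalization, an empirical Bayes model in limma, the Benjamini-Yekutieli adjustment, a q-value under 0.05 and a fold above 1.2. These steps were run here with limma 3.58.1 in R 4.3.3. Normexp had an offset of 0, control spots were left out after it, and quantile normalization followed. Outlier spots were then set missing, replicate spots averaged, and the brightest oligonucleotide taken for each gene name. The methods name no offset, outlier rule or oligonucleotide rule. For the line difference in the combination, the paper reports more transcripts at these thresholds than the 310 names called here. An offset of 50 called 658. The fit used all 18 arrays with 6 group terms, and the values are log2 intensities. It was also run on data simulated from its own variances. These had independent noise and no slide effect, so that run cannot tell how shared deviations of arrays affect the calls. Each group had 3 arrays, read depth does not apply to arrays, and what limits the precision was not tested.

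The deposited value table was not used, because its lines carry no probe name. Members and further lists were chosen with earlier results of these data known. From each further list the 2 largest called rises and falls of a comparison, well above background in a group, could be named, and likeness of profile was taken for the 3 members of widest range. The labels number the replicates alike in all groups. Over all gene names, the deviations of same-numbered arrays correlated at 0.117 to 0.242 between OXA and untreated HT29, and at 0.109 to 0.195 between the combination and OXA in HTOXAR3, where each pair also shared a slide, and in the other 5 comparisons at -0.173 to 0.184, so the block with the replicate number was weighed for those 2 comparisons. It changed no call of a member for OXA in HT29, and its value for the other stands beside the result. Alternatives changed the background, scaling, oligonucleotide rule, adjustment, fold, filter, slide, samples and single arrays. Element searches and figures used Python and matplotlib, and sequences came from RefSeq tables.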

Additional observations from a re-analysis of the deposited data

Results flagged for a closer look

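The response of IER3 to OXA plus Curcumin passed, between the 2 lines, a test of the difference itself, the interaction of line and treatment in the limma model. The difference of the responses, HTOXAR3 minus HT29, was -0.63 (log2, adjusted p = 0.0214), with a rise of 0.50 in HT29 and a value of -0.13 in HTOXAR3, and the OXA dose also differed between the lines. The call was lost in 8 of 12 fits that left out 1 array (-0.67 to -0.56), with normexp and 75th percentile scaling (adjusted p = 0.0623), and without HT29 untreated array 3 and HT29 OXA plus Curcumin array 3 (adjusted p = 0.0642). It was also lost in a fit of only the groups compared, without both arrays of slide 1, and with the 2-fold minimum.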

How the results depend on the processing

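The 18 called differences of members kept their direction under every alternative run, while some differences that were not called and lay near 0 changed sign when 1 array was left out, such as that of JUNB between the untreated lines (-0.06 to 0.21). Counts of members called are given here where they moved by more than 1.5 times, with the share of all gene names called in the same fit in parentheses, and the cause was not tested. With a normexp offset of 50, and likewise with only gene names well above background in a group, 2 members were called in place of 0 for adding Curcumin in HT29 (7.09% and 12.3%), 2 in place of 1 for the line difference in the combination (1.82% and 2.76%) and 1 in place of 0 for that in OXA (1.76% and 2.95%). The processed signal scaled to the 75th percentile, and normexp with that scaling, each called 1 in place of 2 in HTOXAR3 for OXA (11.7% and 9.96%) and for adding Curcumin (9.43% and 8.33%), and the latter called 0 for the line difference in the combination (0.793%). The mean of all probes called 1 for adding Curcumin in HTOXAR3 (7.9%). Benjamini-Hochberg adjustment called 3 for adding Curcumin in HT29 (10.2%), 3 for the line difference in the combination (3.44%) and 1 for that in OXA (3.0%). A 2-fold minimum called 1 for OXA in HT29 (3.26%), 1 for the combination in HT29 (3.78%) and HTOXAR3 (3.3%), and 0 for OXA (1.29%) and for adding Curcumin (1.0%) in HTOXAR3, for the basal difference (2.8%) and for the line difference in the combination (0.309%). Slide as a block called 1 (JUNB) for adding Curcumin in HT29 (4.62%). Fits of only the groups compared, with fewer samples to estimate the spread, called 0 in HT29 for OXA (3.7%) and for the combination (5.68%), 1 for OXA (1.64%) and 0 for adding Curcumin (0.616%) in HTOXAR3, 1 for the basal difference (3.47%) and 0 for the line difference in the combination (0.235%). The replicate block called 1 for adding Curcumin in HT29 (5.19%) and 1 in HTOXAR3 (8.66%), and moved no other count of members by over 1.5 times.

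Leaving out 2 arrays together was chosen after seeing the data. Without both arrays of slide 1, 1 member was called for OXA (9.98%) and 1 for adding Curcumin (8.14%) in HTOXAR3, and 0 for the line difference in the combination (0.459%). Without untreated array 3 and combination array 3 of HT29, 5 were called for OXA in HT29 (13.6%), 0 for the line difference in the combination (0.508%) and 1 for that in OXA (0.9%). Leaving out 1 array at a time gave 2 to 4 members for the basal difference (9.16% to 9.79%), 2 to 3 for OXA (12.8% to 14.5%) and 3 to 6 for the combination (15.5% to 16.3%) in HT29, 1 to 2 (7.23% to 7.9%) and 2 to 3 (13.8% to 14.7%) for these in HTOXAR3, 0 to 0 (3.34% to 4.41%) and 1 to 1 (5.44% to 6.71%) for adding Curcumin in HT29 and HTOXAR3, and 0 to 1 for the line difference in the combination (0.45% to 0.82%). Over all gene names, the 2-fold minimum called 22 to 1369 names a comparison and fits of only the groups compared 5 to 3013, against 49 to 6724. For the line differences in OXA, in the combination and in adding Curcumin, 364, 310 and 49 names became 638, 658 and 178 with the offset of 50, 645, 603 and 139 with the filter, and 1087, 1244 and 323 with Benjamini-Hochberg adjustment, which also gave 5998 in place of 3709 for OXA in HTOXAR3 and 3702 and 5125 in place of 2002 and 3198 for adding Curcumin in HT29 and HTOXAR3. Leaving out arrays gave counts lower by over 1.5 times for the line difference in the combination (down to 163), that in adding Curcumin (down to 8), that in OXA (232), and adding Curcumin in HT29 (down to 1201) and HTOXAR3 (1968). The replicate block gave 31 in place of 49 for the line difference in adding Curcumin. Scaling to the 75th percentile shifted the median of all gene names by up to 0.19, and all 18 called differences of members kept their sign relative to it. Normexp with that scaling split the line difference in the combination into 136 higher and 151 lower names. The authors' processed table was not run, because its lines carry no names.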
